A study of Ovis aries with 32 samples.

Results

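The 10 genes described here break down cyclic AMP (cAMP) or regulate protein kinase A and the phosphatase that opposes it. They were followed in RNA-seq libraries of fetal sheep perirenal preadipocytes before and after differentiation into adipocytes in culture. They were taken by gene symbol from one table and number 10 of the 21271 genes and 29 of the 35219 transcripts listed. The set was chosen by the differences between differentiated and preadipocyte libraries, namely for the rise of PPP1R1A, PPP1R1B and PDE7B, so for all 10 genes the differentiation values are a description and carry no test. The symbols are PPP1R1A and PPP1R1B (inhibitors of protein phosphatase 1), PDE3A, PDE3B, PDE4B, PDE4D, PDE7A and PDE7B (phosphodiesterases), and PRKAR1A and PRKAR2B (regulatory subunits of protein kinase A).

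The 32 libraries fall into 8 groups of 4. MC and FC were preadipocytes of male and female control fetuses, MFGR and FFGR were those of male and female growth-restricted fetuses, and MCD, FCD, MFGRD and FFGRD were the corresponding cells after differentiation. All fetuses came from Columbia-Rambouillet crossbred ewes carrying a singleton. Growth restriction was brought about by keeping the ewes in a hot environment for a stretch of mid-gestation, which impairs the placenta, while control ewes were kept at a moderate temperature and were fed to match. The cells are primary cultures from the fat around the kidney collected near term, and no library is tied to a named animal in the labels. Each p-value therefore measures only the spread between libraries, which may in part be technical. The differentiation medium and its duration are not given in the sources used here.

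In fat cells, hormones such as noradrenaline raise cAMP through adenylyl cyclase, and cAMP releases the catalytic subunits of protein kinase A from their regulatory subunits, which starts the breakdown of stored fat. Phosphodiesterases hydrolyse cAMP and end the signal, and PDE3B is the enzyme through which insulin restrains fat breakdown in adipocytes. PPP1R1A (inhibitor-1) and PPP1R1B (DARPP-32) become inhibitors of protein phosphatase 1 once protein kinase A has phosphorylated them, and so prolong the phosphorylation of its targets. cAMP is also one of the signals that starts adipocyte differentiation.

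The values are normalized reads as the authors deposited them, and transcripts were summed to genes. They compare one gene between libraries and were not scaled by transcript length, so no level is compared here between genes. The libraries hold approximately 7792000 to 21305000 reads, and a value of 10 stands for 5.55 to 14.4 reads. The summed level of 9 adipocyte markers had a median of 364 in the 16 preadipocyte libraries (range 88.3 to 2043) and of 14477 in the 16 differentiated libraries (range 415 to 185524), so the differentiated cultures differed widely among themselves. The summed level of 9 preadipocyte or fibroblast markers had a median of 646973 before and of 445531 after differentiation. The collagens COL1A1 (medians of 302705 and 171322) and COL3A1 (288820 and 273193) made up most of this sum. THY1 (539 and 1218), PDGFRA (10681 and 11532.5) and DPP4 (299 and 396) had a higher median after. PDGFRB (2330 and 1161), POSTN (14958 and 854) and CD34 (26.7 and 14.5) had a lower median after. DLK1 of the same list did not exceed 2.34 in any library. UCP1, the defining protein of brown fat, had a median of 0 in preadipocytes and of 18.5 in differentiated cells. Of the same brown fat list, CIDEA had a median of 53.8 before and 43.0 after, and PRDM16 of 8.45 and 3.10. The summed list had a median of 68.6 before and 67.9 after. The endothelial list did not exceed 286. The immune list did not exceed 904, with PTPRC at 10 or above in 1 library and CD68 and CD14 in all 32. CD14 had a median of 40.9 before and of 114 after differentiation, whereas CD68 had 92.2 before and 63.2 after. The median sum was 4529 before and 1704 after for smooth muscle or pericyte markers, and 9.66 before and 46.0 after for steroidogenic ones (highest 1362), and the part of these lists in the differentiation values was not tested. The 7 libraries MFGR replicate 1, FC replicate 2, FFGR replicates 2 and 3, MCD replicate 4, MFGRD replicate 1 and FFGRD replicate 3 stood apart from the other 25 at the first division of a clustering tree over all transcripts, and results that rest on them are given with and without them.

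The phosphatase inhibitors were close to absent before differentiation and higher after it, in every library for PPP1R1A and in all but FCD replicate 4 for PPP1R1B. PPP1R1A (ENSOARG00020015494) is a single-transcript gene on chromosome 3 of Oar_rambouillet_v1.0, from 141530427 to 141538446. It was at 0 in 9 of 16 preadipocyte libraries and did not exceed 1.75 in the others. In MCD its values were 253, 211, 191 and 247, a narrow band. In FCD they were 68.9, 46.7, 224 and 57.8, of which 3 lay below every MCD library. In MFGRD they were 1182, 950.0, 79.4 and 7.74, and in FFGRD they were 35.0, 1264, 1886 and 355. The growth-restricted cultures therefore held both the lowest and the highest levels after differentiation, and the means in order were 885 ± 846 in FFGRD, 555 ± 599 in MFGRD, 225 ± 29.3 in MCD and 99.3 ± 83.5 in FCD (SD, n = 4). FFGRD and MFGRD overlapped across almost their whole ranges. No fold change is given for PPP1R1A or PPP1R1B, because the level before differentiation was at or near 0 and the fold would depend on the pseudocount.

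PPP1R1B (ENSOARG00020014711) lies on chromosome 11 from 23173457 to 23181452. It was at 0 in 10 of 16 preadipocyte libraries, with a highest value of 5.47 in FC replicate 1. After differentiation it had values of 132, 416, 639.7 and 625 in MCD and of 732, 70.9, 92.0 and 31.8 in MFGRD. In FCD the values were 167, 62.0, 189 and 4.23, and in FFGRD they were 375, 153, 1177 and 16.5. FCD replicate 4 was the exception, since its level lay below that of the highest FC library. PPP1R1B-201 accounted for 99.6% of the mean gene level, and PPP1R1B-202 did not reach 10 in 4 libraries.

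**Figure D1:**
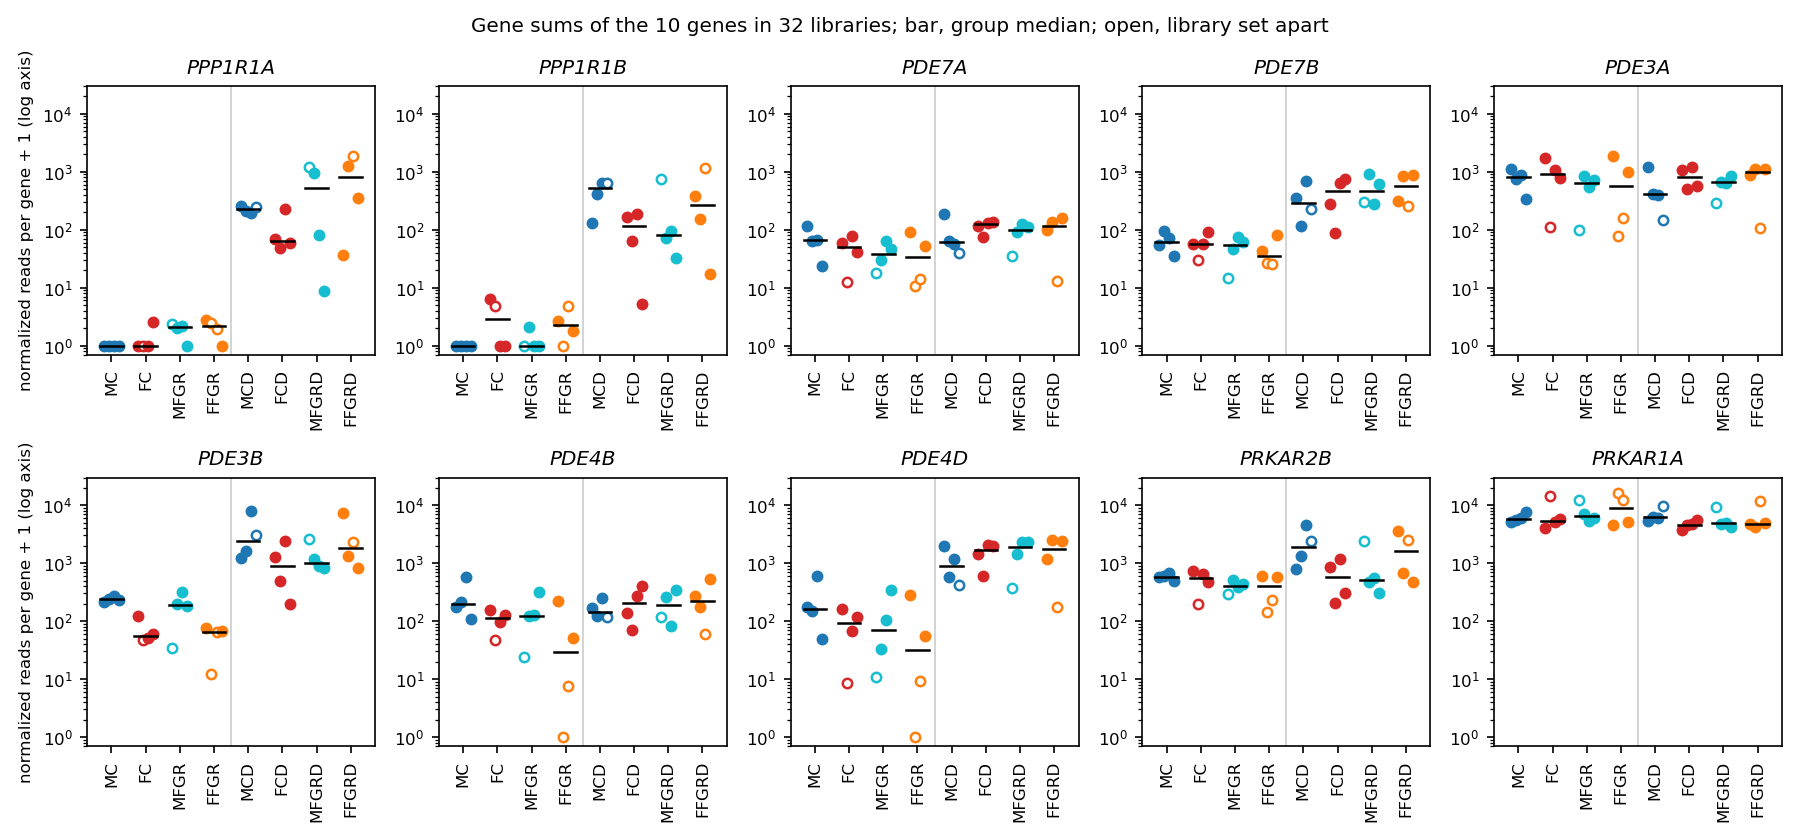
Gene sums of the 10 genes in each library by group, as normalized reads plus 1 on a log axis, with preadipocytes to the left and differentiated cells to the right of the grey line. Points are libraries (open for the 7 that stood apart) and bars are group medians, with PPP1R1A and PPP1R1B at 5.47 or below in all preadipocyte libraries and PRKAR1A varying between 3751 and 16204 with overlapping ranges on both sides of the line.

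Among the phosphodiesterases, PDE7B, PDE3B and PDE4D were higher after differentiation in all 4 groups. PDE7B (ENSOARG00020022379, chromosome 8, 67310180 to 67666388) encodes a high-affinity enzyme specific for cAMP. Its values in MC were 52.6, 94.7, 70.1 and 34.2 and in MCD 348, 114, 701 and 224. In FC they were 56.2, 29.4, 55.5 and 88.9 and in FCD 278, 87.3, 648 and 759.6. In both control groups every differentiated library except FCD replicate 2 lay above all preadipocyte libraries. In MFGR they were 13.9, 45.3, 73.7 and 60.7 and in MFGRD 299, 899, 277 and 618. In FFGR they were 41.9, 25.2, 24.5 and 78.5 and in FFGRD 306, 829, 256 and 888. The libraries before and after did not overlap in MC, MFGR and FFGR, and in FC the lowest differentiated library fell just below the highest preadipocyte library. On the log2(value + 1) scale the difference was 2.24 (SE 0.54) in MC, 2.61 (SE 0.67) in FC, 3.46 (SE 0.59) in MFGR and 3.66 (SE 0.57) in FFGR.

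PDE3B (ENSOARG00020008382, chromosome 15, 40925080 to 41110636) hydrolyses both cAMP and cGMP and is inhibited by cGMP. In MC its values were 211, 239.6, 270.5 and 233, and in MCD they were 1227, 1647, 7991 and 3096. In FC they were 123, 45.8, 49.8 and 60.1, and in FCD 1268, 492, 2424 and 193. FC lay below MC throughout, and neither overlapped with its differentiated libraries. In MFGR they were 32.8, 195, 321 and 183, and in MFGRD 2650.0, 1159, 884 and 835. In FFGR they were 76.2, 11.1, 63.9 and 65.7, and in FFGRD 7226, 1346, 2304 and 829. Every differentiated library lay above every preadipocyte library of its own group, and the log2 difference was 3.48 (SE 0.51) in MC, 3.50 (SE 0.73) in FC, 3.13 (SE 0.69) in MFGR and 5.53 (SE 0.80) in FFGR. Without the libraries that stood apart it was 2.07 in MFGR and 4.81 in FFGR. Among preadipocytes the lowest levels were in FFGR replicate 2 and MFGR replicate 1, both libraries that stood apart.

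PDE4D (ENSOARG00020007357, chromosome 16, 20316636 to 21581348) encodes a family of cAMP-specific enzymes. Its values in MC were 172, 151, 611 and 47.6 and in MCD 1955, 580.1, 1190.1 and 413. In FC they were 164, 7.63, 66.7 and 115 and in FCD 1432, 598, 2062 and 1954. The highest MC library exceeded 2 of the MCD libraries, whereas FC and FCD did not overlap. In MFGR they were 9.76, 31.6, 105 and 345 and in MFGRD 365, 1458, 2359 and 2336. In FFGR they were 281, 0, 8.45 and 54.3 and in FFGRD 1174, 2519, 177 and 2391. The ranges separated in FC and in MFGR and overlapped in MC and FFGR. The log2 difference was 2.37 (SE 0.73) in MC, 4.56 (SE 0.86) in FC, 4.45 (SE 1.05) in MFGR and 5.76 (SE 1.65) in FFGR, where the value of 0 in FFGR replicate 2 widens the error. Without the 7 libraries that stood apart the FFGR difference was 3.94 and the FC difference 3.65.

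PDE3A, PDE4B and PDE7A, the closest relatives of these enzymes, did not show such a shift. PDE3A (ENSOARG00020000569, chromosome 3, 208387492 to 208752798) had a median of 758 in preadipocytes and of 653 in differentiated cells, with log2 differences between -0.77 in MC and 0.59 in FFGR. PDE7A (ENSOARG00020025840, chromosome 9, 46529058 to 46635437) had a median of 48.7 before and of 103 after, with log2 differences between 0.29 in MC and 1.52 in FC, and its ranges overlapped in every group. PDE4B (ENSOARG00020007182, chromosome 1, 43691470 to 44226985) had a median of 124 before and of 172 after. Its log2 difference ran from -0.50 (SE 0.49) in MC to 3.53 (SE 1.54) in FFGR, and the latter became 1.47 without the libraries that stood apart, 2 of which are FFGR libraries with PDE4B at 0 and 6.58. Of the pairs PDE3A and PDE3B, PDE4B and PDE4D, and PDE7A and PDE7B, one gene was thus higher after differentiation in all 4 groups by at least 2.24 on the log2 scale, and the other was not.

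The regulatory subunits of protein kinase A also differed from each other. PRKAR2B (ENSOARG00020011053, chromosome 4, 54143000 to 54252005) encodes RII-beta, the main regulatory subunit of mature fat cells. Its values in MC were 568, 591, 686 and 486 and in MCD 799, 1344, 4519 and 2406, without overlap. In FC they were 722, 194, 653 and 469 and in FCD 862, 204, 1201 and 307, overlapping over most of their range. PRKAR2B was thus separated in male control cells and not in female ones. In MFGR they were 288, 510.0, 389 and 429 and in MFGRD 2422, 477, 557 and 300.3. In FFGR they were 608, 145, 229.9 and 584 and in FFGRD 3619, 687, 2512 and 468. The log2 difference was 1.67 (SE 0.47) in MC, 0.15 (SE 0.63) in FC, 0.74 (SE 0.59) in MFGR and 1.98 (SE 0.77) in FFGR. Without the libraries that stood apart these were 1.55, -0.26, -0.03 and 0.82, so the size of its difference in MFGR and FFGR depended on these libraries. PRKAR1A (ENSOARG00020010575, chromosome 11, 1452475 to 1653192) encodes RI-alpha, a subunit found in most cells, and had a median of 5835 before and of 4965 after, with log2 differences between -0.52 in FFGR and 0.13 in MC.

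**Figure D2:**
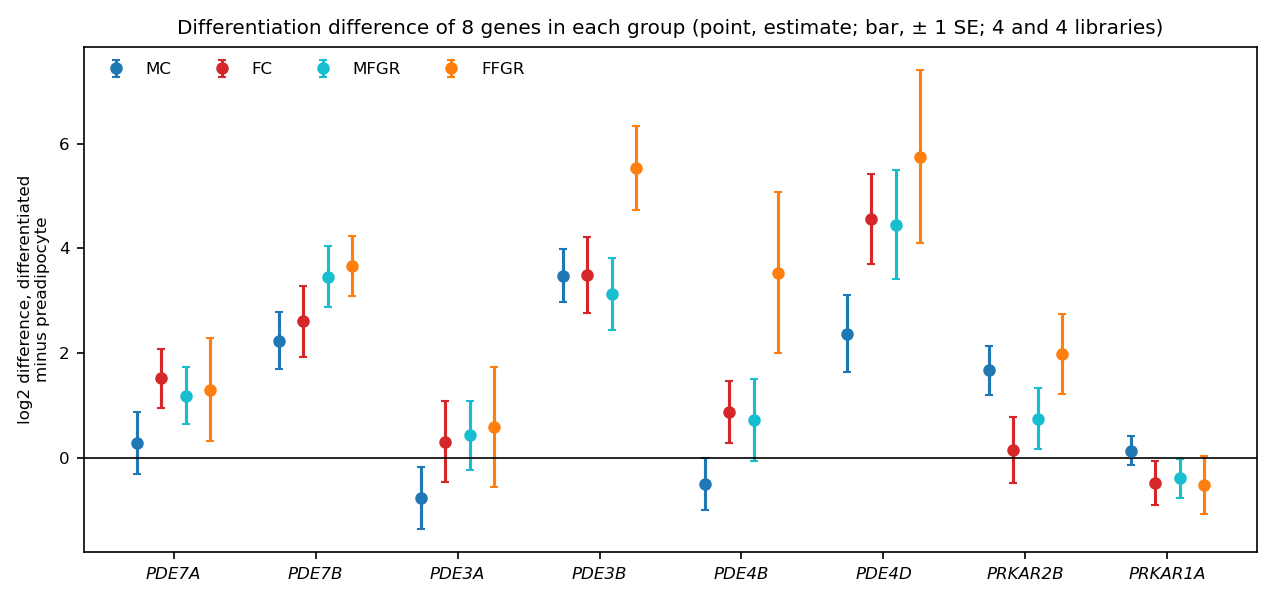
Difference of log2(value + 1) between differentiated cells and preadipocytes for 8 genes in each of the 4 groups, with bars of 1 SE on either side (4 libraries against 4). PDE7B, PDE3B and PDE4D lie at 2.24 or above in all groups, PRKAR1A lies within 0.52 of 0, and PPP1R1A and PPP1R1B are left out because their preadipocyte levels are at or near 0.

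Counted by the call rule used for all genes (limma, adjusted p below 0.05 and a fold above 1.5), 4 of 10 genes tested were called higher in MC, 1 of 9 in FC, 3 of 9 in MFGR and 4 of 10 in FFGR. Of all genes tested, 3.33%, 0.181%, 1.22% and 0.914% were called higher in the same comparisons. Blocking on the replicate number gave 3 in FC and 5 in MFGR. PPP1R1B was not tested in FC and PPP1R1A was not tested in MFGR, because only 3 libraries reached 10. Counted by ranges, all 4 differentiated libraries lay above all 4 preadipocyte libraries for 5 genes in MC, 3 in FC, 5 in MFGR and 4 in FFGR, against 7.59%, 4.95%, 4.84% and 5.01% of all genes tested. Since the choice of the genes used this contrast, nothing is read from these counts.

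Of the 29 transcripts, 22 reached 10 in at least 4 of the 32 libraries. The 7 that did not were PDE4D-202 to PDE4D-206, PDE4D-208 and PPP1R1B-202. PDE7B-201 spans the whole gene, and the shorter PDE7B-202 and PDE7B-203 run from 67509586 to the same end (the table gives no strand). PDE7B-201 was above 0 in 4 of 16 preadipocyte libraries, at no more than 36.6, and in all 16 differentiated libraries. It had values of 228, 49.6, 453 and 185 in MCD, of 213, 624, 208 and 564 in MFGRD and of 281, 656, 214 and 559 in FFGRD. In FCD the values were 255, 37.4, 514 and 372. PDE7B-202 was the higher transcript in MCD replicate 2 (52.7) and FCD replicate 2 (44.2). The share of PDE7B-201 in the gene sum went from a median of 0% in preadipocytes to 73.1% in differentiated libraries (range 42.8% to 91.9%). PDE7B-202 made up most of the preadipocyte level, with a mean of 44.5 over the 16 libraries, and had a mean of 111 in the differentiated libraries. On average, PDE7B-202 was therefore the higher transcript in preadipocytes and PDE7B-201 in differentiated cultures.

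PDE4D-209, which runs from 21525999 to the end coordinate of the gene, made up a median of 89.8% of PDE4D before and 91.8% after differentiation. PDE4D-210, a shorter transcript that runs from 21559263, was above 0 in 3 preadipocyte libraries, at no more than 7.67, and in 13 differentiated libraries. Its values were 42.3, 40.7, 191 and 64.6 in FCD and 138, 85.5, 167 and 191 in MFGRD. In MCD they were 132, 0, 5.87 and 44.3, and in FFGRD 0, 213, 0 and 27.6. PDE4D-201, the longest transcript and one named after its values were seen, was at 0 in all preadipocyte libraries and above 0 in 14 differentiated ones, at no more than 63.5. PDE3B-202 made up 93.8% of the mean level of PDE3B, PDE4B-202 made up 86.1% of PDE4B, PDE7A-201 made up 81.1% of PDE7A and PDE7A-202 the remaining 18.9%. PRKAR1A-201 made up 90.5% of PRKAR1A, although in MCD replicate 2 PRKAR1A-202 (also named after its values were seen) was the higher of the pair, at 3769.9 against 2484. Transcripts of one gene share sequence, so the split between them is an estimate and is less certain than the gene sum.

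**Figure D3:**
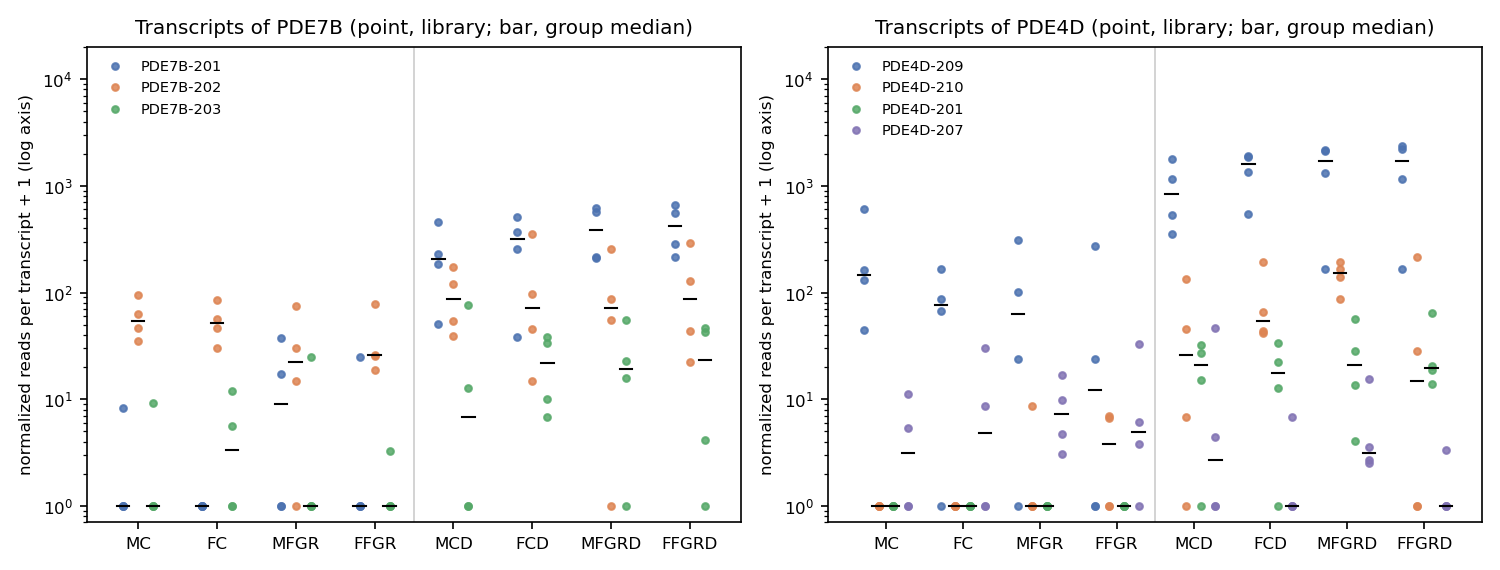
Values of 3 transcripts of PDE7B and 4 of PDE4D in each library by group, as normalized reads plus 1 on a log axis, with bars at the group medians. PDE7B-201 has a median share of 0% of its gene in preadipocytes and of 73.1% in differentiated cells, while PDE4D-209 is the leading transcript of its gene in both.

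The genes did not all vary together within the differentiated cultures. ADIPOQ, which encodes the adipocyte hormone adiponectin, ranged from 8.59 in FCD replicate 4 to 13421 in MCD replicate 3 over the 16 differentiated libraries. In bulk RNA a lower level of such a marker can mean fewer adipocytes or less of its RNA in each of them, and these cannot be told apart. PPP1R1B followed ADIPOQ closely across these libraries (Pearson's r = 0.98, Spearman's rho = 0.94 on log2 values), and its lowest level fell in the library with the lowest ADIPOQ. PDE3B (r = 0.90, rho = 0.94) and PRKAR2B (r = 0.86, rho = 0.95) did so too. Leaving out the 2 libraries farthest from the median of ADIPOQ gave r of 0.96, 0.82 and 0.92, and leaving out the 3 that stood apart gave 0.98, 0.90 and 0.82. The libraries of one group share their condition, so these are descriptions of 16 cultures and carry no p.

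PPP1R1A showed only a loose relation to ADIPOQ (r = 0.40, rho = 0.32), although it belongs to the same family of inhibitors as PPP1R1B. FFGRD replicate 1, with ADIPOQ at 9579.9, had PPP1R1A at only 35.0. MFGRD replicate 2, with ADIPOQ at 661, had PPP1R1A at 950.0. Between PPP1R1A and PPP1R1B themselves r was 0.44, and 0.20 without the 3 libraries that stood apart. Even so, FFGRD replicate 3 held the highest level of both inhibitors, at 1886 for PPP1R1A and 1177 for PPP1R1B.

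PDE7B and PDE4D were not highest where ADIPOQ was highest. FCD replicate 4, with the lowest ADIPOQ of the 16, had PDE7B at 759.6 and PDE4D at 1954, among the upper values of each gene, while its PPP1R1B was at 4.23 and its PDE3B at 193, the lowest of the 16. The relation to ADIPOQ was r = -0.38 for PDE7B (rho = -0.30), -0.58 for PDE4D (rho = -0.58), -0.59 for PDE7A (rho = -0.60), -0.44 for PDE3A (rho = -0.39) and -0.48 for PDE4B (rho = -0.39). Without the 3 libraries that stood apart these became -0.31, -0.41, -0.50, -0.11 and -0.34. PRKAR1A went from r = 0.50 to 0.19 on the same step. The highest relations between the genes themselves were PDE7A with PDE4D and PDE7A with PDE3A (both r = 0.93), PDE3B with PRKAR2B (r = 0.92), PDE3A with PDE4D (r = 0.89), PPP1R1B with PRKAR2B (r = 0.85) and PPP1R1B with PDE3B (r = 0.84). Without the 3 libraries that stood apart these were 0.78, 0.82, 0.93, 0.66, 0.80 and 0.86 in the same order. PDE3A and PRKAR1A ran opposite to each other (r = -0.91, or -0.61 without these 3 libraries).

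**Figure D4:**
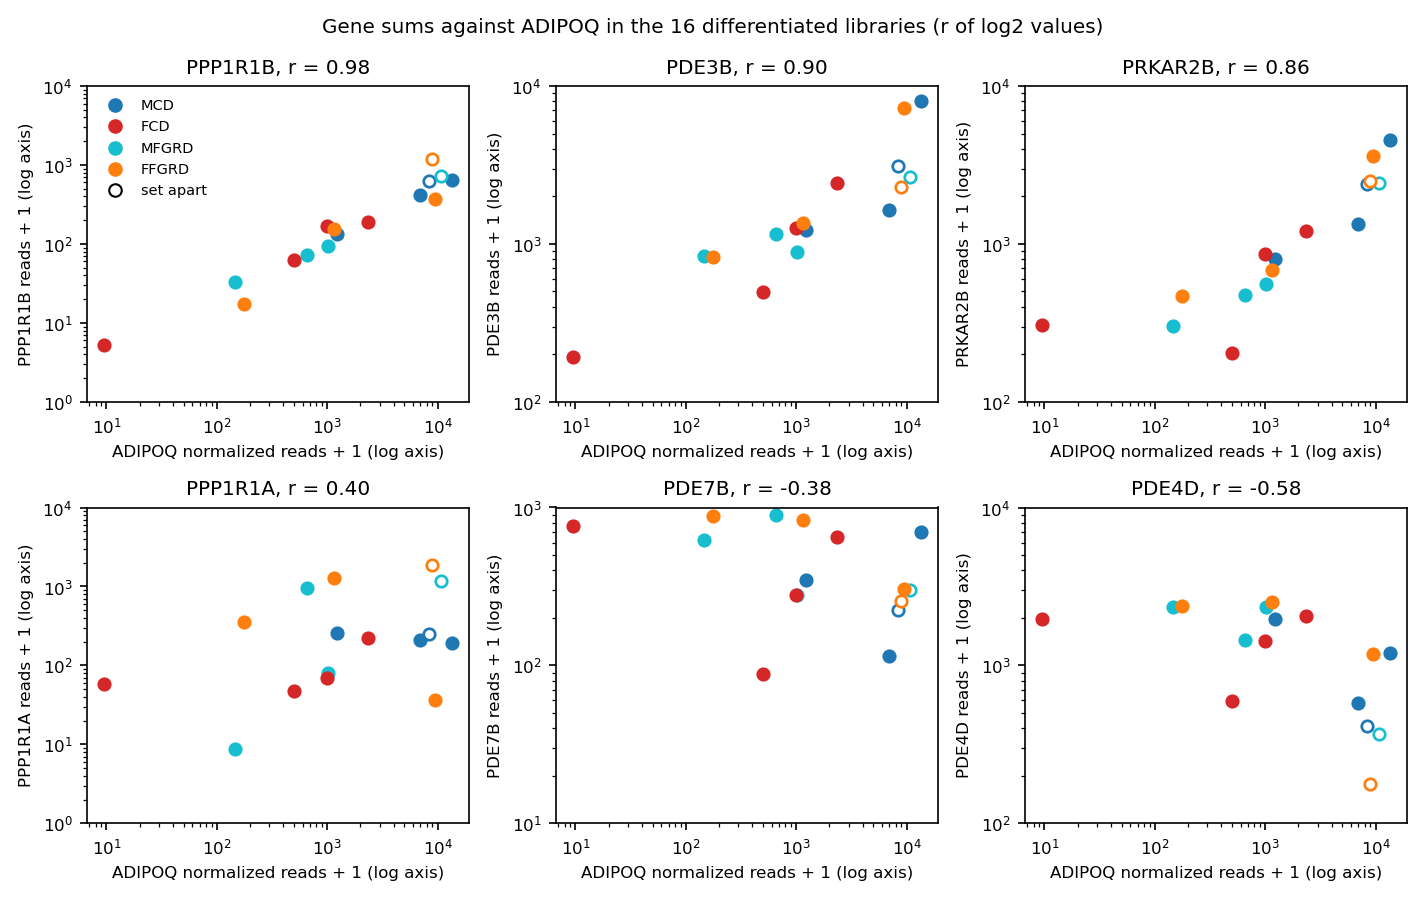
Levels of 6 genes against ADIPOQ in the 16 differentiated libraries, both as normalized reads plus 1 on log axes, with colours for the 4 groups and open points for the 3 libraries that stood apart. PPP1R1B, PDE3B and PRKAR2B increase along ADIPOQ (r of 0.98, 0.90 and 0.86), whereas PPP1R1A is scattered (0.40) and PDE7B and PDE4D slope the other way (-0.38 and -0.58).

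The libraries that stood apart differed from the others in the same direction for several of the genes. Among preadipocytes, all 4 of them lay below all 12 others for PDE3A, PDE4B, PDE4D, PDE7A, PDE7B and PRKAR2B, and above all 12 for PRKAR1A. PDE3A, for instance, lay between 76.4 and 158 in them and between 343 and 1831 in the others, and PRKAR1A lay between 12226 and 16204 against 4022 to 7603. Among differentiated libraries all 3 lay below all 13 others for PDE3A, PDE4D and PDE7A and above all 13 for PRKAR1A. PDE7B, PDE3B and PRKAR2B were inside the range of the others there, and the highest PPP1R1B values included 2 of the 3. These libraries were set apart on all transcripts, the 10 genes included, and the part of this in the spread of each group was not tested.

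The genes whose levels over the 32 libraries were most like those of PPP1R1A, PPP1R1B and PDE7B were found among 10618 named genes by Pearson's r on log2 values. For PPP1R1B these were KLB (r = 0.98), THRSP (0.97) and FABP4 (0.96), and within the 16 differentiated libraries alone the same r were 0.93, 0.96 and 0.95. For PPP1R1A they were ADRA2B, JAM3 and CCL19 (each 0.91), with 0.74, 0.45 and 0.52 within differentiated libraries. For PDE7B they were NET1 (0.94), FBXO21 and LRP1B (both 0.93), with 0.86, 0.75 and 0.82. The likeness of PPP1R1B to its 3 genes hardly fell within the differentiated libraries, whereas that of PPP1R1A rested mostly on the step from preadipocytes to differentiated cells.

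Whether growth restriction, sex or their combination changed these genes is a question that the choice of the genes did not use, and here the tests are read. No gene of the 10 was called in any of the 7 comparisons, and neither was any of the 12069 to 12737 genes tested in each (0% called by limma). The same held in the 8 comparisons within one sex or one growth state (11487 to 11681 genes tested). Unadjusted p fell below 0.05 for 306 genes (2.52% of those tested) with growth restriction in preadipocytes and for 87 (0.721%) in differentiated cells. With sex it did so for 470 genes (3.87%) in preadipocytes and for 94 (0.779%) in differentiated cells. For the differences in response it did so for 132 genes (1.04%, growth-restricted against control) and 116 (0.911%, male against female). For MFGR against the other 3 groups averaged it did so for 74 genes (0.581%). PPP1R1A and PPP1R1B did not reach the filter in preadipocytes, so 8 genes were tested there and 10 elsewhere. In the response comparisons PPP1R1A and PPP1R1B reached the filter only through the differentiated libraries. Their response values also depend on the pseudocount, so no test of response is read for them.

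Sex in preadipocytes gave the smallest unadjusted p of the 10 genes, for PDE3B. Its level was higher in males by 1.76 (SE 0.47) on the log2 scale (adjusted p = 0.844 by limma). Among control preadipocytes all 4 MC libraries lay above all 4 FC libraries, with means of 239 ± 24.6 and 69.6 ± 35.9 (SD, n = 4), a pattern that 0.612% of all genes tested showed in that direction. The difference there was 1.87 (SE 0.34) (limma, adjusted p = 1). In growth-restricted preadipocytes it was 1.65 (SE 0.83) (limma, adjusted p = 0.987), with the MFGR and FFGR ranges overlapping because of MFGR replicate 1. None of the 10 genes separated in this way in the other 7 comparisons within one sex or growth state, where the shares of all genes with the growth-restricted libraries above the controls were 0.561%, 0.385%, 0.425% and 0.417% and those with males above females 0.498%, 0.97% and 0.226%. The pooled difference stayed between 1.45 and 2.10 when each library was left out in turn and was 1.69 without the 4 preadipocyte libraries that stood apart (adjusted p = 0.264 by limma), so its direction held while the adjusted p never passed the threshold.

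In differentiated control cells 4 genes were higher in males at an unadjusted p below 0.05, a p that 445 of all 11544 genes tested (3.85%) had in either direction. The difference was 1.46 (SE 0.47) for PPP1R1A, 1.87 (SE 0.66) for PRKAR2B, 2.76 (SE 1.06) for PPP1R1B and 1.85 (SE 0.80) for PDE3B. The adjusted p by limma was 0.873 for each, and the MCD and FCD ranges overlapped for all 4. ADIPOQ was at 1233, 6933, 13421 and 8436 in MCD and at 991, 497, 2356 and 8.59 in FCD, and its part in these differences was not tested. In growth-restricted cells the same 4 differences were -1.32 (SE 1.77), -0.98 (SE 0.83), -0.72 (SE 1.36) and -0.76 (SE 0.68), with adjusted p of 1 for each. Pooled over growth the smallest p was that of PPP1R1B, at 1.02 (SE 0.93) (limma, adjusted p = 1).

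Growth restriction in preadipocytes gave values below 0 for 7 of 8 genes, PRKAR1A being the exception, with a median of -0.61 against -0.02 over all genes tested. Without the 4 preadipocyte libraries that stood apart, of which 3 were growth-restricted, the values lay below 0 for 6 of 8 genes, between -0.30 and 0.11, with a median of -0.07. The smallest p was that of PDE4B, at -1.80 (SE 0.89) (limma, adjusted p = 0.833), with -1.08 (SE 0.79) in males and -2.52 (SE 1.47) in females. PDE4B was at 174, 217, 581 and 109 in MC and at 23.0, 122, 125 and 322 in MFGR. It was at 152, 47.1, 97.5 and 127 in FC and at 219, 0, 6.58 and 50.7 in FFGR. The PDE4B difference was -0.30 once the 4 libraries that stood apart were left out (adjusted p = 1 by limma). After differentiation the smallest p was that of PDE7B, which was higher in growth-restricted cells by 0.64 (SE 0.50) (limma, adjusted p = 1), with 0.72 (SE 0.58) in males and 0.57 (SE 0.73) in females. PPP1R1A differed by 0.97 (SE 0.97) (limma, adjusted p = 1), with -0.42 (SE 1.33) in males and 2.36 (SE 1.15) in females. The growth-restricted groups held the widest spread of PPP1R1A, from 7.74 to 1886.

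**Figure D5:**
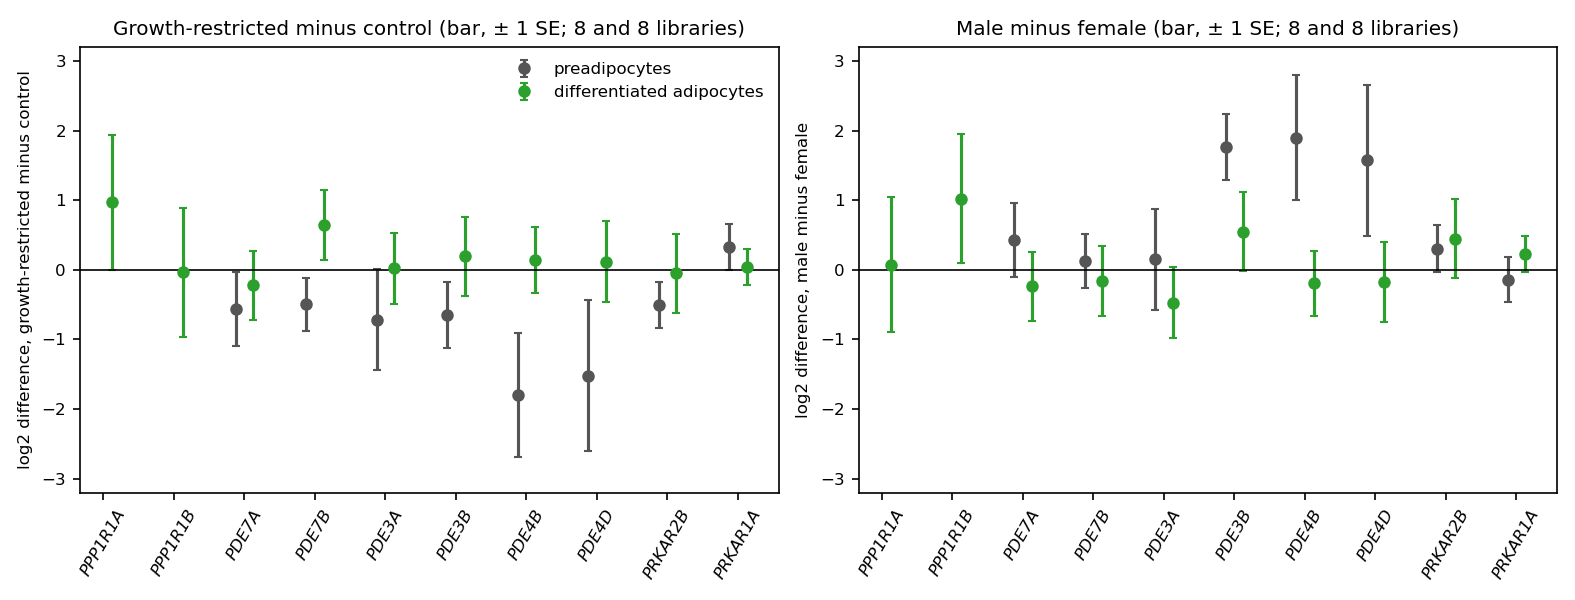
Difference of log2(value + 1) for growth-restricted against control (left) and male against female (right), in preadipocytes and in differentiated cells, with bars of 1 SE on either side and 8 libraries against 8. PDE3B is higher by 1.76 in male preadipocytes and PDE4B lower by 1.80 on the log2 scale in growth-restricted ones, and no gene passed the threshold.

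The size of the response to differentiation was compared between groups with all 32 libraries in one fit. For growth-restricted against control cells the smallest p was that of PDE4B, at 1.94 (SE 1.05) (limma, adjusted p = 0.988), and PDE7B followed at 1.14 (SE 0.65). For male against female cells the smallest p was again that of PDE4B, at -2.09 (SE 1.05) (limma, adjusted p = 0.912). Without the 7 libraries that stood apart the PDE4B values were 0.75 and -1.09. Between MFGR and the average of the other 3 groups the smallest p was that of PDE3B, at -1.04 (SE 0.89) (limma, adjusted p = 1). These fits share libraries with the comparisons above and are not separate evidence. Although the 4 groups gave differentiation values from 2.37 to 5.76 for PDE4D and from 3.13 to 5.53 for PDE3B, no difference in response between groups passed the test.

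The rest of the cAMP pathway was followed through 75 other genes, of which 64 were in the table: cyclases and their G protein, other phosphodiesterases, subunits and inhibitors of protein kinase A, anchoring proteins, EPAC, cAMP response factors and protein phosphatase 1. These genes were not part of the rule, so the tests of differentiation are read for them, although the list was drawn up with earlier results of these data known. In MC 8 of 47 tested genes were called, 4 higher and 4 lower, and in FC 0 of 46. In MFGR 4 of 47 were called, 1 higher and 3 lower, and in FFGR 3 of 45, 1 higher and 2 lower. The shares called in MC, FC, MFGR and FFGR were 17.02%, 0%, 8.51% and 6.67% of the list, against 7.53%, 0.43%, 3.38% and 2.67% of all genes tested. An unadjusted p below 0.05 was found for 15, 11, 11 and 11 genes of the list (31.9%, 23.9%, 23.4% and 24.4%), against 24.0%, 12.6%, 15.6% and 15.5% of all genes. The counts include ADCY5 in MC, ADCY7 in MFGR and PDE6B in FFGR, which reached the filter only through the group where they were high. The same held for PDE1B in MC and FFGR and for PKIG in MC and MFGR. The shares called include these genes, so nothing is read from their difference to the shares of all genes. Blocking on the replicate number gave 14 in MC and 9 in MFGR. The median log2 difference of the list was -0.20, -0.01, 0.02 and 0.15, against -0.02, 0.02, 0.06 and 0.03 over all genes. By role, 2 of 7 tested cyclases were called in MC (1 higher, 1 lower), 1 of 6 in MFGR and 1 of 6 in FFGR (both lower). Of 4 other phosphodiesterases that act on cAMP, 2 were called in MC (1 higher, 1 lower), 1 in MFGR (lower) and 1 in FFGR (higher). A single gene was called each time among cGMP phosphodiesterases in MFGR and FFGR, among subunits and inhibitors of protein kinase A in MC and MFGR, and among anchoring proteins, response factors and protein phosphatase 1 in MC, and EPAC had no call.

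PDE1B, PDE4A and PKIG were called in 2 groups each. PDE1B, a calmodulin-dependent phosphodiesterase of cAMP and cGMP, lies 2604 bases from PPP1R1A on chromosome 3 (141541051 to 141565773). It was at 12.2, 7.06, 2.04 and 22.8 in MC and at 45.8, 84.9, 193 and 114 in MCD. It rose by 3.37 (SE 0.68) in MC and by 3.66 (SE 0.71) in FFGR. In FC and MFGR the values were 2.85 (SE 0.60) and 2.13 (SE 0.74). In each group PDE1B reached the filter only through the differentiated libraries, so no p is read for it. Without the libraries that stood apart PDE1B differed by 3.29 in MC and by 2.73 in FFGR. Across the 16 differentiated libraries its r with ADIPOQ was 0.70 and with its neighbour PPP1R1A 0.44, or 0.61 and 0.24 without the 3 that stood apart.

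PDE4A, a cAMP-specific phosphodiesterase of the family of PDE4B and PDE4D, was lower after differentiation in MC and MFGR. It was at 175, 168, 125 and 148 in MFGR and at 80.8, 32.7, 44.1 and 61.2 in MFGRD without overlap. It fell by 1.78 (SE 0.40) in MC and fell by 1.55 (SE 0.34) in MFGR on the log2 scale (limma, adjusted p = 0.0273 and 0.0451). In FC and FFGR the values were -1.09 (SE 0.46) and -1.32 (SE 0.53) (limma, adjusted p = 0.363 and 0.27). PKIG, an inhibitor of the catalytic subunit of protein kinase A, was at 67.0, 87.1, 73.8 and 54.3 in MC and at 26.0, 0, 5.25 and 4.59 in MCD. It fell by 3.67 (SE 0.85) in MC and fell by 3.17 (SE 0.40) in MFGR. In FC and FFGR the values of PKIG were -1.99 (SE 0.91) and -4.27 (SE 1.05). In each group PKIG reached the filter only through the preadipocyte libraries, so no p is read for it. Without the libraries that stood apart the adjusted p of PDE4A was 0.0587 in MC and 0.0369 in MFGR (limma). The PKIG differences were then -3.67 in MC and -3.08 in MFGR.

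The other 9 genes were called in one group each and are named here after their values were seen. In MC the adenylyl cyclase ADCY5 was at 2.45 or below and in MCD at 85.5, 359, 395 and 143. The kinase SIK2, which restrains the cAMP response, rose by 2.13 (SE 0.44) in MC. The mitochondrial anchoring protein AKAP1 rose by 1.12 (SE 0.30) in the same comparison, while the cyclase ADCY3 fell by 1.71 (SE 0.41) and the phosphatase subunit PPP1R3B fell from 457, 898, 411 and 341 to 309, 128, 172 and 129. In MFGR PDE6A, a cGMP phosphodiesterase of photoreceptors, rose by 1.75 (SE 0.36). The cyclase ADCY7 was at 11.2, 16.3, 57.2 and 20.2 in MFGR and at 1.79, 0.839, 3.09 and 0.862 in MFGRD. PDE6B, the partner subunit of PDE6A, was at 15.3, 52.9, 48.0 and 10.6 in FFGR, where replicates 2 and 3 are libraries that stood apart, and at 0, 0, 0 and 2.24 in FFGRD. In FFGR the cyclase ADCY2 fell by 2.62 (SE 0.56). For SIK2, AKAP1, ADCY3, PPP1R3B, PDE6A and ADCY2 the adjusted p by limma ran from 0.0187 for SIK2 to just below the threshold for AKAP1. No p is read for ADCY5, ADCY7 and PDE6B, whose lower group is near 0. No gene of the list was called in the growth restriction, sex or response comparisons.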

How the data were processed

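RNA was sequenced from 32 libraries of fetal sheep perirenal preadipocytes and of the same kind of cells after differentiation, 4 in each of 8 groups, each library taking its group from its label. The labels say that adipose tissue was the starting material for RNA, whereas the study's methods describe cell pellets. The authors checked the reads with FastQC (0.11.9 per the submitters' processing notes), dropped those with an average Phred score under 34, quantified transcripts of Oar_rambouillet_v1.0 from Ensembl with Salmon and normalized them with DESeq2. The values they deposited are a normalized read signal per transcript. They are not whole reads, and the factor behind them differs between transcripts, so no count test was run. The authors' own columns of fold changes, p-values and group means were not used.

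Transcripts were summed per gene identifier, and log2(sum + 1) was fitted with limma 3.58.1 (eBayes with trend, two-sided) in R 4.3.3. Genes with at least 10 in at least 4 libraries of a fit were tested, and a gene was called at a Benjamini-Hochberg adjusted p below 0.05 and a fold above 1.5. Fold changes on this scale understate the change of low genes. For the 10 genes, differentiation is given as a description. The calls that the same fits made for them are counted beside the share over all genes, and no p is read. Growth restriction and sex were each fitted over 16 libraries, and responses over 32. Libraries that stood apart were found by hierarchical clustering. Tables were handled with Python 3.11.15 and pandas 2.3.3. The fitting code was tested on simulated data. The value of 1 read in each library, and from it the depth, was estimated from the lowest values.

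The 10 genes, the pathway list and the marker lists were chosen with earlier results of these data known. The text names all 10 genes, each of their transcripts that makes up at least 10% of the gene or was called, the gene with the smallest p in each comparison, and the pathway genes called in at least 2 groups. For each of PPP1R1A, PPP1R1B and PDE7B the 3 genes with the highest r are named.

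Groups share replicate numbers in the labels. Whether these pair the libraries was checked by correlating deviations from the group means. The correlation was 0.16 to 0.61 between MC and MCD, 0.30 to 0.51 between FC and FCD and 0.39 to 0.67 between MFGR and MFGRD. It was -0.40 to 0.56 between FFGR and FFGRD. Same-numbered libraries thus deviated together in MC, FC and MFGR. The main fits did not pair libraries, and a block on the replicate number was fitted only as an alternative. Other pseudocounts, filters, normalizations and subsets of libraries were tried as alternatives.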

Additional observations from a re-analysis of the deposited data

Results flagged for a closer look

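In 78 tests of a single library against the other 3 of its group (10 genes in 8 groups, except PPP1R1A and PPP1R1B in MC, where all libraries are at 0), the gap to the nearest library divided by the group's range passed Dixon's 95% critical value in 6. About 1 in 20 such tests passes by chance. PDE3B in FFGR replicate 2 was the lowest of its group at 11.1, with a ratio of 0.906. PDE3A in FFGRD replicate 3 was the lowest at 106, with a ratio of 0.892, and PRKAR1A in the same library was the highest at 11863, with a ratio of 0.850. These 3 values belong to libraries that stood apart from the rest.

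The other 3 concern genes near 0 in preadipocytes. PPP1R1A was highest in FC replicate 4 at 1.55, with a ratio of 1, and lowest in MFGR replicate 4 at 0, with a ratio of 0.830. PPP1R1B was highest in MFGR replicate 2 at 1.07, with a ratio of 1. Each of these values stands for at most a few reads.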

How the results depend on the processing

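The number of the 10 genes called with differentiation was 4 in MC, 1 in FC, 3 in MFGR and 4 in FFGR, and moved with the processing. A stricter filter (20 in 3 libraries after scaling each library to the same sum) gave 2, 0, 1 and 1. Quantile normalization gave 2 in FC. Fitting transcripts gave 3 in FC and 2 in FFGR, where 23 of 16046 and 98 of 15914 transcripts were called over the whole fit. Fitting all 8 groups together gave 4 in FC and 5 in MFGR. Without the 7 libraries that stood apart the counts were 1 in MC, 2 in FC and 0 in FFGR. Apart from the transcript fits, no number called over all genes is set beside these counts, so nothing is read from them. Leaving out each library in turn gave 1 to 4 in MC (2 without MCD replicate 2 and 1 without MCD replicate 3 or 4) and 0 to 2 in FC (0 without FCD replicate 1 or 3, 2 without FC replicate 2). It gave 0 to 3 in MFGR (0 without MFGRD replicate 2 or 4) and 0 to 3 in FFGR (0 without FFGR replicate 3 or FFGRD replicate 2). The number called over all genes moved on the same step. It was 311 to 1746 in MC (874 with every library), 0 to 95 in FC (50), 77 to 317 in MFGR (393) and 26 to 259 in FFGR (310). Such shifts are therefore not particular to the 10 genes.

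The number of pathway genes called was 8 in MC, 0 in FC, 4 in MFGR and 3 in FFGR. A pseudocount of 0.1 gave 5 in MC and 0 in FFGR, quantile normalization 2 in MFGR and 5 in FFGR, and no filter 2 in MFGR and 1 in FFGR. The stricter filter gave 1 in MC and 0 in MFGR and FFGR, and fitting transcripts gave 3 in MC, 1 in MFGR and 0 in FFGR. All 8 groups together gave 2 in FC and 9 in FFGR. Without the libraries that stood apart the counts were 1 in MC and 0 in FFGR. Leaving out each library gave 1 to 9 in MC, 0 in FC, 1 to 2 in MFGR and 0 to 1 in FFGR. In FFGR the number called over all genes fell each time as well, from 310 to between 26 and 259. The cause of these shifts was not tested. Nothing is read from the pathway counts under the settings other than leaving out each library, because no number over all genes is set beside them.

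The replicate block gave 3 called genes of the 10 in FC and 5 in MFGR, and 14 pathway genes in MC and 9 in MFGR. It changed no other call. Its number called over all genes is not set beside these counts, so nothing is read from them. In growth restriction, sex and response, 0 of the 10 genes were called under every alternative, and no called difference changed sign. In these fits the block joined same-numbered libraries across groups. Their deviations correlated at -0.30 to -0.11 between MC and MFGR and at -0.28 to 0.76 between FC and FFGR. Pairing each preadipocyte library with its own differentiated library was therefore not tried in the response comparisons. Without the libraries that stood apart, differences that were not called changed sign for PRKAR2B in FC and MFGR (-0.26 and -0.03), for PDE3A in FC and FFGR (-0.53 and -0.40) and for PRKAR1A in MC (-0.05). Leaving out a single library did so also for PDE3A in MFGR (without MFGR replicate 1) and for PDE7A in MC (without MC replicate 4 or MCD replicate 1). With 4 libraries a group and values of 10 standing for as few as 5.55 reads, differences in PPP1R1A and PPP1R1B among preadipocytes were not detectable at this depth.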
